A study of Mus musculus with 6 samples.

Results

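The 5 genes described here, Gata6, Foxf1a, Hlx, Lhx2 and Runx3, encode developmental transcription factors outside the Hox clusters and were chosen by their mean normalized count, which was lower in mouse brainstem gliomas with the histone mutation H3.3K27M than in gliomas without it. They are 5 of the 223 genes of the deposited table and 5 of the 41 that were lower with the mutation, and 0.251% of the 16365 gene tests behind the table were called lower. RNA was sequenced from 3 independent tumours with PDGF-B, H3.3K27M and p53 loss and from 3 independent tumours with PDGF-B and p53 loss, all in p53 floxed C57BL/6 mice that carry Nestin tv-a. This transgene puts a receptor for avian retroviruses on nestin-positive progenitors, which lets such viruses deliver genes to these cells. PDGF-B, a mitogen of glial progenitors that is used to induce gliomas, was present in all 6 tumours, as was p53 loss. The titles of the tumours without the mutation read H3.3WT, and whether that marks an introduced wild-type histone is not stated. No label states the age of the mice.

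The values are read counts that the authors normalized per tumour, called normalized counts below. The table covers only genes under an adjusted p of 0.05, and a gene outside it either did not reach that threshold or was not tested. Read as whole reads, a reading that is not settled, the values of all listed genes summed to between 244051 and 277881 in H3.3K27M tumours. In tumours without the mutation the sums were between 215758 and 237860, and the full sequencing depth is unknown. The titles of all H3.3K27M tumours begin with 12 and those of the others with 11, so whatever these numbers mark cannot be told apart from the mutation. The genes for PDGF-B, p53 and H3.3 are not among the listed genes, so the genotypes could not be checked at those genes.

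Transcription factors of this kind set which developmental programme a cell follows, and most are silent in cells of other lineages. Their promoters are often rich in CpG dinucleotides, and in such cells they are held silent by Polycomb complexes, of which PRC2 methylates lysine 27 of histone H3. The H3.3K27M histone, found in human diffuse midline glioma, replaces that lysine with methionine and inhibits PRC2. Each of the 5 factors belongs to a different DNA-binding family or subfamily. Gata6 is a zinc finger factor of endoderm, heart and smooth muscle. Foxf1a, now named Foxf1, is a forkhead factor of lung and gut mesenchyme that acts downstream of Hedgehog signals. Hlx is a homeobox factor of visceral mesenchyme and of blood and T cells. Lhx2 is a LIM homeobox factor of the forebrain, the eye and hair follicle stem cells. Runx3 is a Runt domain factor of proprioceptive sensory neurons and cytotoxic T cells.

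The genes lie on separate chromosomes, Gata6 on 18, Foxf1a on 8, Hlx on 1, Lhx2 on 2 and Runx3 on 4. RefSeq promoter windows (build GRCm38.p6, 250 bases before to 50 after a transcription start) were matched for 3 of the 5 genes, Hlx, Lhx2 and Runx3. They are shown because CpG-rich promoter sequence is a feature of Polycomb targets that played no part in choosing the genes. All are written 5′ to 3′ on the strand of the gene, and capitals mark CpG dinucleotides. The Hlx window is chr1:184732444-184732743 on the minus strand, the first Lhx2 start is chr2:38339031-38339330 on the plus strand, and the 2 Runx3 starts are chr4:135120395-135120694 and chr4:135152295-135152594, both on the plus strand.
Hlx: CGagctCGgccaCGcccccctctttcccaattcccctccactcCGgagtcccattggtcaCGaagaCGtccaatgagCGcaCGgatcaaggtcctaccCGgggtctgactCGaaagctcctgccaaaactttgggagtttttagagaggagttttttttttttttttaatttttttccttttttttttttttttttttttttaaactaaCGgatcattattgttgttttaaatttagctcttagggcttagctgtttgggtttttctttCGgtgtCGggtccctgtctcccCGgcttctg
Lhx2, first start: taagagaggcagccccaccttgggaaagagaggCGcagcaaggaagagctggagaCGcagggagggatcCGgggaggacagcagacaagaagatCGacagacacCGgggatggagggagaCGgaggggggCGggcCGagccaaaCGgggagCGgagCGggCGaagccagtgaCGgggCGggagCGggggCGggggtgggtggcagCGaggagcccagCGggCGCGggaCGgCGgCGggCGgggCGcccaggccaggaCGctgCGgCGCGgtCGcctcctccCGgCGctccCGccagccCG
Runx3, first start: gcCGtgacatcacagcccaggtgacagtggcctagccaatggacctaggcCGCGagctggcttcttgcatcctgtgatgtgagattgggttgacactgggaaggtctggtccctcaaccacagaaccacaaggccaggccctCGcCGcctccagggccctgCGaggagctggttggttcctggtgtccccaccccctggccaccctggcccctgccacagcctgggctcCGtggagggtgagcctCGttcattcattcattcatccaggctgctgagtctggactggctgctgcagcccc
Runx3, second start: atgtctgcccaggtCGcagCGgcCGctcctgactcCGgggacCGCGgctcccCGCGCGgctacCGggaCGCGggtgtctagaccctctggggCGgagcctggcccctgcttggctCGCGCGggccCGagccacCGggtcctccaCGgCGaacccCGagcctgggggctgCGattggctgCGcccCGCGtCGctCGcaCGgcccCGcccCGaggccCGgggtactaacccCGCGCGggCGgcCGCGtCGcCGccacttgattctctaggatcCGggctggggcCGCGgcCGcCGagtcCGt

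The windows differed widely in CpG content. The second Runx3 start had 45 CpG dinucleotides in 300 bases, a number reached by 1.93% of the 32851 promoter windows of the same length in the RefSeq table. The first Runx3 start, which lies upstream of it, had 8, a number that 48.6% of windows reach. The 2 Lhx2 starts had 34 and 29, reached by 7.73% and 12.9% of windows. The Hlx window had 14, reached by 36.3% of windows, and long runs of T. The median was 29 CpG over the 5 windows of Hlx, Lhx2 and Runx3, 16 over the 35 windows of the 24 other lower genes that were matched, 16 over the 199 windows of the 137 higher genes that were matched, and 7 over all windows, which is a description with no test. The files do not show which start was used in these tumours, and promoter methylation and histone marks were not measured.

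**Figure D1:**
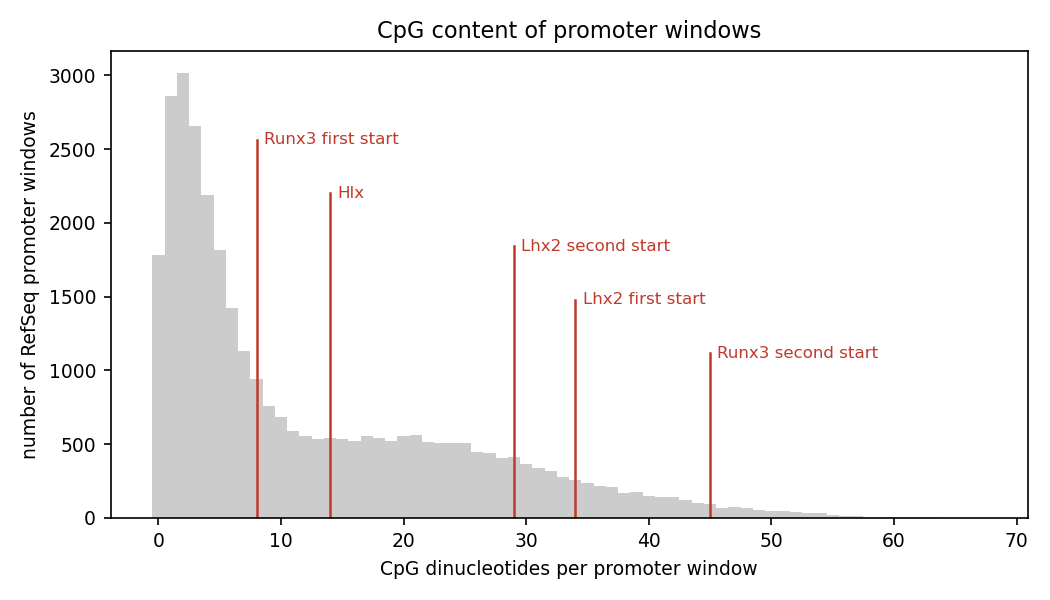
Number of RefSeq promoter windows of 300 bases (vertical axis) by their number of CpG dinucleotides (horizontal axis); grey bars are all 32851 windows and red lines the windows of Hlx, Lhx2 and Runx3. The first Runx3 start (8 CpG) stands near the bulk of windows, and the second (45 CpG) far into the right tail.

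The windows of Hlx, Lhx2 and Runx3 were searched for motifs of the GATA, forkhead, LIM homeobox and RUNX families. No motif of the family of Hlx was searched. Both strands were searched for the GATA motif, spelled AGATAA, for the forkhead motif, spelled TAAACA, for the LIM homeobox motif, spelled TAATTA, and for the RUNX motif, spelled TGTGGT. Where matches meet they may share letters. The first Runx3 start held 2 RUNX matches, both as the reverse complement ACCACA, and 16.8% of all windows hold at least 1. No window of Hlx, Lhx2 or Runx3 held a GATA, forkhead or LIM homeobox match, which 11.2%, 13.4% and 5.29% of all windows hold. The GC box GGGCGG was found 4 times in the first Lhx2 window and 3 times in the second Runx3 window, against at least once in 35.7% of all windows. The CCAAT box was found 3 times in the Hlx window, 2 times in the first Runx3 window and 1 time in the second, against at least once in 37.4% of all windows. The TATA box TATAAA, held by 13.6% of all windows, was in none of the 5. A match shows only that the letters are present, and 5 windows are too few to set these counts apart from the shares over all windows.

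All 5 factors had lower levels in each H3.3K27M tumour than in any tumour without the mutation, from 9.94-fold lower means for Gata6 to 2.63-fold for Runx3. In bulk tumours, fewer cells that express a factor and less RNA per cell cannot be told apart. Gata6 (ENSMUSG00000005836) had 3.77, 5.16 and 25.1 normalized counts in H3.3K27M tumours, against 87.6, 95.6 and 154.9 in tumours without H3.3K27M. The groups did not overlap, and H3.3K27M replicate 3 stood 6.65-fold above replicate 1, the widest spread within a group for any of the 5 factors. Read as whole reads, the 3 H3.3K27M libraries held 4, 5 and 26, and the exact 95% Poisson interval on the normalized scale was 16.4 to 36.7 for replicate 3, above the 1.03 to 9.66 of replicate 1 and the 1.68 to 12.1 of replicate 2. These intervals cover counting error only. The mean was 11.3 ± 11.9 in H3.3K27M tumours, against 112.7 ± 36.8 in tumours without it (SD, n = 3 each). By the authors' deposited table it was 9.94-fold lower (adjusted p = 2.40e-05). Without H3.3K27M replicate 3 the ratio of the means was 25.2-fold, and without replicate 1 of that group it was 7.46-fold.

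Lhx2 (ENSMUSG00000000247) had 39.6, 32.02 and 95.4 normalized counts in H3.3K27M tumours, against 261.6, 264.5 and 383.9 in tumours without H3.3K27M. As with Gata6, replicate 3 was the highest tumour of each group, and the lowest tumour without the mutation stood 2.74-fold above the highest with it. The mean was 55.7 ± 34.6 in H3.3K27M tumours, against 303.3 ± 69.8 in tumours without it (SD, n = 3 each). Lhx2 was 5.45-fold lower in the authors' deposited table, with adjusted p = 5.06e-07, the smallest among the 41 lower genes. Without H3.3K27M replicate 3 the ratio of the means was 8.47-fold.

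Foxf1a (ENSMUSG00000042812) had 36.8, 32.02 and 46.3 normalized counts in H3.3K27M tumours, against 139.9, 113.2 and 114.5 in tumours without H3.3K27M. Its tumours lay close together within each group, with a coefficient of variation of 18.9% in H3.3K27M tumours and 12.3% in tumours without it. The mean was 38.3 ± 7.25 in H3.3K27M tumours, against 122.5 ± 15.0 in tumours without it (SD, n = 3 each), and the lowest tumour without the mutation stood 2.45-fold above the highest with it. It was 3.20-fold lower in the authors' deposited table (adjusted p = 0.0135). Leaving out any 1 tumour kept the ratio of the means between 2.95-fold and 3.56-fold.

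Hlx (ENSMUSG00000039377) had 95.2, 90.9 and 115.7 normalized counts in H3.3K27M tumours, against 267.7, 260.6 and 292.3 in tumours without H3.3K27M. It was the steadiest of the 5, with a coefficient of variation of 13.2% in H3.3K27M tumours and 6.09% in tumours without it. The mean was 100.6 ± 13.2 in H3.3K27M tumours, against 273.5 ± 16.6 in tumours without it (SD, n = 3 each). It was 2.72-fold lower in the authors' deposited table (adjusted p = 5.44e-04), and leaving out any 1 tumour kept the ratio between 2.59-fold and 2.94-fold.

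Runx3 (ENSMUSG00000070691) had 61.3, 67.1 and 107.9 normalized counts in H3.3K27M tumours, against 224.4, 258.6 and 138.5 in tumours without H3.3K27M. Its groups came nearest to each other: replicate 3 without the mutation stood only 1.28-fold above H3.3K27M replicate 3. The mean was 78.8 ± 25.4 in H3.3K27M tumours, against 207.2 ± 61.9 in tumours without it (SD, n = 3 each). It was 2.63-fold lower in the authors' deposited table (adjusted p = 0.0367), which is position 39 among the 41 lower genes and 201 among all 223 when ordered by adjusted p. The largest adjusted p in the table was 0.0495. Leaving out any 1 tumour kept the ratio of the means between 2.30-fold and 3.23-fold.

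**Figure D2:**
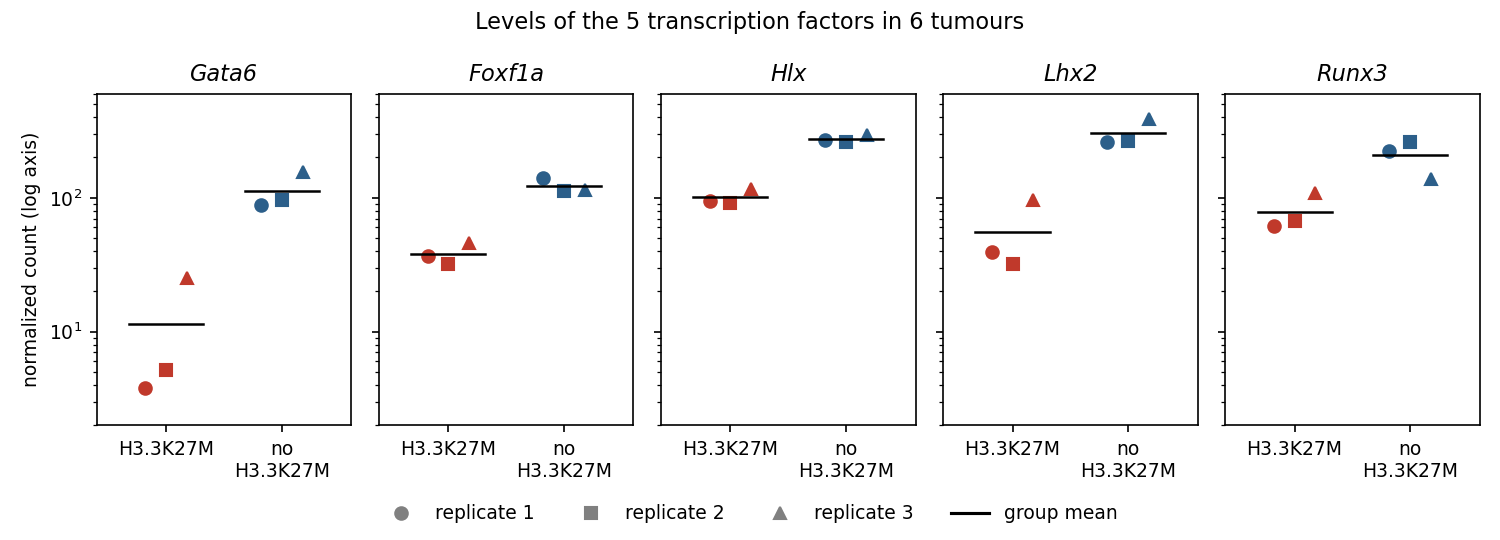
Normalized counts (vertical log axis) of Gata6, Foxf1a, Hlx, Lhx2 and Runx3 in each tumour, with H3.3K27M tumours in red and tumours without H3.3K27M in blue; symbols mark the replicate and black lines the group means (n = 3 each). Gata6 has the widest gap and the widest spread, Hlx the narrowest spread, and the Runx3 groups come within 1.28-fold of each other.

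These levels are the ones that chose the genes, so the contrast was given no test here and the authors' adjusted p-values describe how each gene came to be listed. All 5 factors were at least 2-fold lower and had groups that did not overlap. In the authors' comparison 1.36% of gene tests were called in either direction. Of the 41 lower genes in the table, 31.7% were at least 2-fold lower and 97.6% had groups that did not overlap, so the lack of overlap is common to nearly all lower genes of the table. Ordered by fold change, the 5 factors held positions 6 and 8 to 11 of the 41. Ahead of them were Hoxa4, Hoxa5 and Hoxa7, the antisense transcript 2700086A05Rik and the predicted gene Gm4631, and between Gata6 and Lhx2 lay 1110050K14Rik. The median log2 fold change in the authors' deposited table was -1.68 for the 5 factors and -0.70 for the 33 other lower genes with a finite value, and 3 others were at 0 in all H3.3K27M tumours. This order went with level. Every lower gene with a mean of up to 327.1 without H3.3K27M (that of Wnk4), the 5 factors included, was more than 2-fold lower. Of the lower genes above that mean, only Gm4631 was. A threshold on adjusted p favours large folds among genes with low counts, and its part in this order was not tested.

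**Figure D3:**
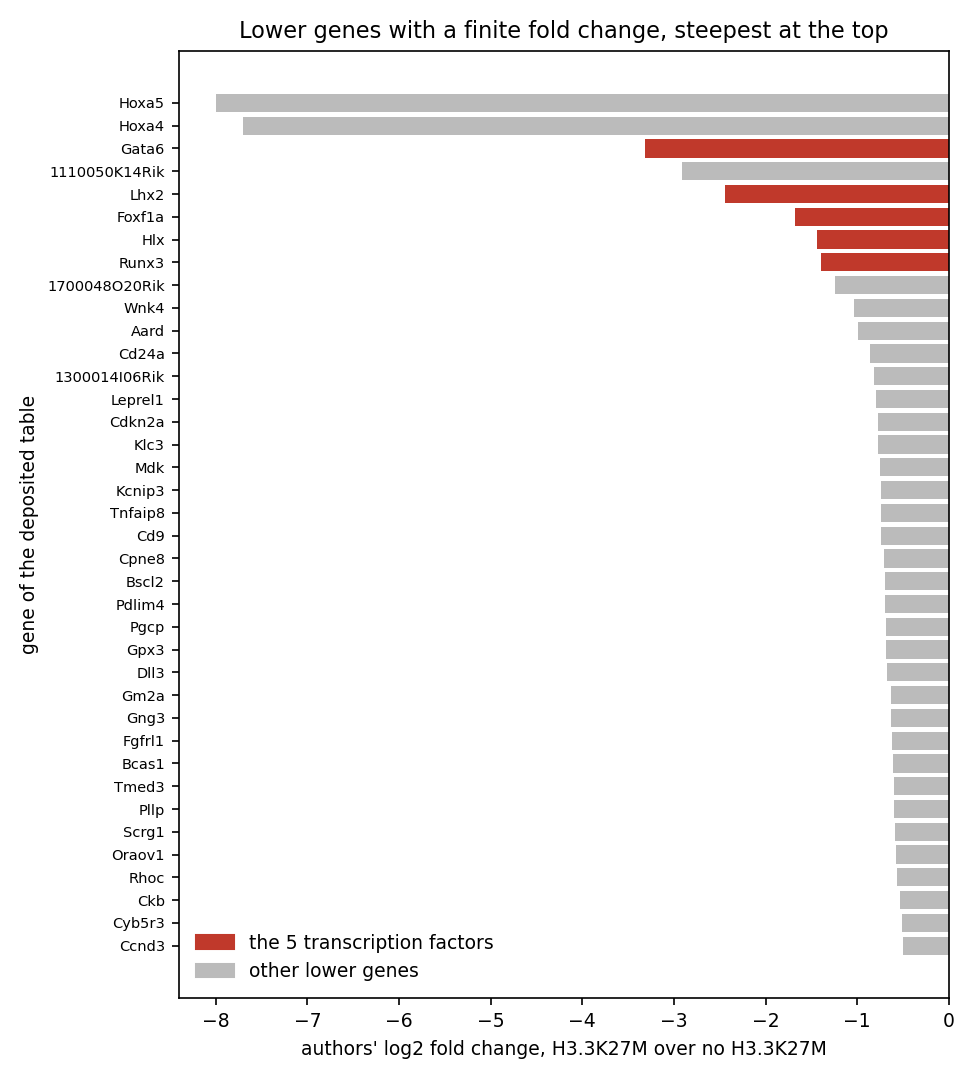
The authors' log2 fold change, H3.3K27M over no H3.3K27M (horizontal axis), of the 38 lower genes with a finite value, steepest at the top; red bars are the 5 transcription factors and grey bars the other lower genes. After Hoxa5 and Hoxa4, all 5 factors stand among the next 6 genes. The steepest genes here are also those with the lowest counts in tumours without H3.3K27M.

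The order of the tumours within a group was not used to choose the genes. H3.3K27M replicate 3 held the highest of the 3 mutant values for 5 of 5 factors. Among the other lower genes without ties, replicate 3 was the highest H3.3K27M tumour for 9 of 31 (29.0%) and replicate 2 for 20 of 31 (64.5%). Most of these genes have higher counts than the factors. 1110050K14Rik and 1700048O20Rik, near the factors in the profiles compared below, were also highest in replicate 3. They had 15.1, 15.5 and 37.6, and 83.9, 72.3 and 91.6, in H3.3K27M replicates 1, 2 and 3. Wnk4 was highest in replicate 2, at 184.9 against 184.1 in replicate 3. Hoxa4 and Hoxa5, left out for ties at 0, were at 1.93 in replicate 3. The order is thus not particular to the factors. Replicate 3 was the highest H3.3K27M tumour for 89 of 182 higher genes (48.9%) and for 103 of 218 of all listed genes without ties (47.2%), more often than either other H3.3K27M tumour. The log2(normalized count + 1) of replicate 3 minus the mean of replicates 1 and 2 had a median of 0.74 over the 5 factors, with a range of 0.31 to 2.26, against -0.01 over the 36 other lower genes and 0.30 over the 182 higher genes. The 5 factors together summed to 236.6, 227.2 and 390.3 normalized counts in H3.3K27M replicates 1, 2 and 3, against 981.2, 992.5 and 1084.1 in the tumours without H3.3K27M. Replicate 3 was thus the highest H3.3K27M tumour for every factor, though below all tumours without the mutation. By the 95% Poisson intervals, it lay above both other H3.3K27M tumours for Gata6, Lhx2 and Runx3 only. For Hlx its interval of 95.9 to 138.3 overlapped the 77.6 to 115.7 of replicate 1. For Foxf1a its 34.1 to 61.3 overlapped the 26.1 to 50.3 of replicate 1. The title of this tumour carries the number 703, where those of replicates 1 and 2 carry 623; what the numbers mark is not stated, and its part in the difference was not tested. In the tumours without H3.3K27M the factors had no shared order, with the highest value in replicate 3 for Gata6, Hlx and Lhx2, in replicate 1 for Foxf1a and in replicate 2 for Runx3.

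**Figure D4:**
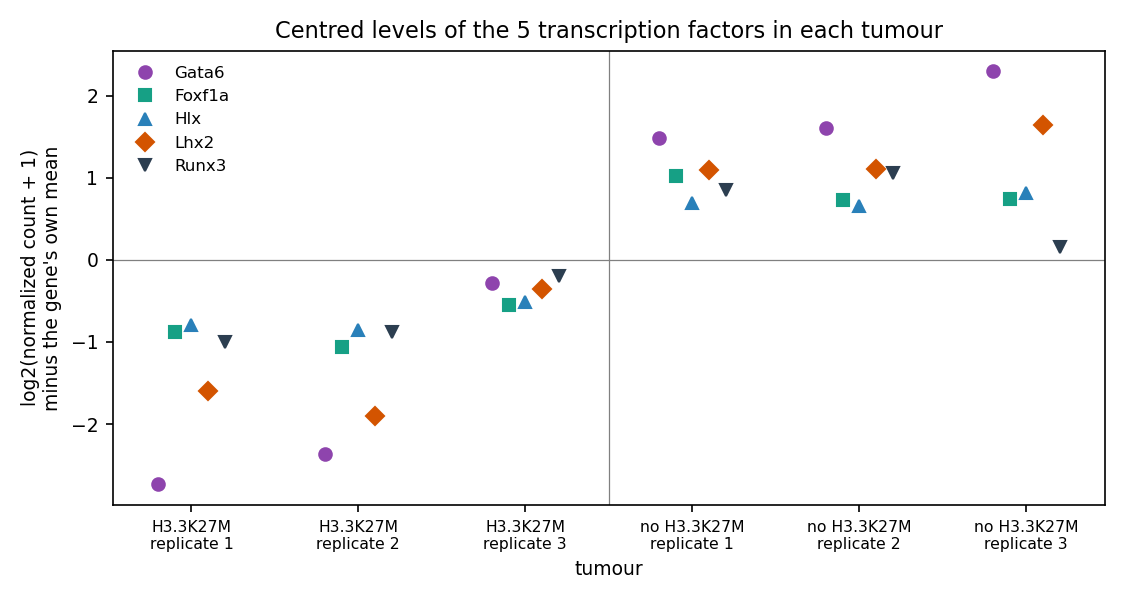
The log2(normalized count + 1) of each factor minus its own mean over the 6 tumours (vertical axis) in each tumour (horizontal axis), with H3.3K27M tumours left of the line and tumours without H3.3K27M right of it. All 5 factors are higher in H3.3K27M replicate 3 than in replicates 1 and 2, and Runx3 is lowest of the 5 in replicate 3 without the mutation.

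To compare profiles, each gene's log2(normalized count + 1) was centred on its own mean, and the absolute difference between genes was averaged over the 6 tumours; this distance is a description. It includes the group difference that chose the genes and so largely follows the size of the fall. As the difference between groups in the mean of these log2 values, the fall was -3.59 for Gata6 and -2.57 for Lhx2. It was -1.66 for Foxf1a, -1.44 for Hlx and -1.38 for Runx3. The median distance to the other lower genes, most of which fell less, does not remove this dependence on the fall and is given beside each value for scale. Hlx and Foxf1a differed by 0.14 per tumour on average, against medians of 0.39 for Hlx and 0.50 for Foxf1a. Runx3 differed by 0.29 from both Foxf1a and Hlx, against a median of 0.49. Gata6 and Lhx2 differed by 0.53, against medians of 1.48 for Gata6 and 0.97 for Lhx2, while Gata6 differed from Foxf1a, Hlx and Runx3 by 1.05, 1.15 and 1.10. With this pseudocount of 1, Lhx2 lay as near to Foxf1a, at 0.52, as to Gata6, and at 0.59 from Runx3 and 0.62 from Hlx. The other genes among the 3 nearest to a factor were 1110050K14Rik (0.59 from Gata6 and 0.43 from Lhx2), Hoxa7 (0.74 from Gata6), 1700048O20Rik (0.11 from Hlx and 0.24 from Foxf1a) and the kinase gene Wnk4 (0.27 from Hlx and 0.37 from Runx3). The first of these, 1110050K14Rik, had 22.7 ± 12.9 normalized counts in H3.3K27M tumours, against 171.1 ± 65.1 in tumours without it, and 1700048O20Rik had 82.6 ± 9.70 in H3.3K27M tumours, against 194.7 ± 25.0 in tumours without it (SD, n = 3 each).

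Levels of different genes were compared per kilobase of exon, with exon lengths from GENCODE M21, which need not be those the authors counted over. In H3.3K27M tumours Hlx was the highest, with a mean of 44.2 ± 5.81 normalized counts per kilobase (SD, n = 3). Foxf1a followed at 15.9 ± 3.003, Runx3 at 15.7 ± 5.08 and Lhx2 at 12.7 ± 7.88 per kilobase, and these 3 overlapped between tumours, while Gata6 was the lowest at 1.74 ± 1.83. In the tumours without H3.3K27M the order was Hlx at 120.1 ± 7.31, Lhx2 at 69.0 ± 15.9, Foxf1a at 50.7 ± 6.23, Runx3 at 41.4 ± 12.4 and Gata6 at 17.3 ± 5.65 per kilobase. Among neighbours in this order, Foxf1a (46.9 to 57.9) and Runx3 (27.7 to 51.7) overlapped and the other pairs did not. By mean level per kilobase, Lhx2 was above Foxf1a and Runx3 in the tumours without the mutation and below both in H3.3K27M tumours, where the 3 overlapped.

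Reads of overlapping genes could enter these values, since use of strand is not stated. In GENCODE M21, the antisense transcripts that overlap Lhx2 and Runx3 share 0 exonic bases with them. Gata6 shares 93 of its 6508 exonic bases with the transcript 1010001N08Rik on the other strand, and Foxf1a shares at most 98 of its 2415 with any 1 overlapping gene. Of the 50 nearest annotated genes, 5 on each side of each factor, 0 are in the deposited table, against 1.36% of all gene tests called. How many of the 50 were tested is not known. The neighbours of Foxf1a include the forkhead genes Foxc2 and Foxl1 and the noncoding RNA Fendrr, for which no value is given.

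The relatives and partners of the 5 factors were looked up in lists of transcription factor families. The lists were drawn up around the factors, and 1.36% of all gene tests were called in either direction. A lack of other listed genes in lists this short therefore tells little. Gata6 was the only listed gene of 9 in the GATA list, which holds the Fog cofactors, Lhx2 the only one of 18 in the LIM homeobox list, which holds the Ldb and Lmo partners, and Runx3 the only one of 11 in the RUNX list, which holds its partner Cbfb. Among 41 forkhead genes, Foxf1a was lower and Foxp1, a factor of neurons and other tissues, was higher. Foxp1 had 392.3 ± 54.1 normalized counts in H3.3K27M tumours, against 215.2 ± 30.8 in tumours without it (SD, n = 3 each). Its adjusted p in the authors' deposited table was 0.0348. Among 45 genes of the NK-like homeobox list, Hlx was lower and Barhl1, known from cerebellar granule cells, was higher.

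Over all 367 genes of the non-Hox transcription factor lists, 13 were in the table, 8 higher and 5 lower. Of all gene tests, 1.36% were called in either direction and 0.251% were called lower. The 5 lower ones were the 5 described here, which follows from how these were chosen. The lists were also chosen with earlier results known, so these counts are a description. Over all listed genes, 182 were higher and 41 lower. Besides Foxp1 and Barhl1, the higher ones were Otx2 and Pbx3 of the homeobox families, Zfhx4, a large zinc finger and homeobox gene, and Bcl11a, Ebf3 and Scrt1, factors of neuronal development. In the authors' deposited table Bcl11a was 7.29-fold higher (adjusted p = 2.11e-07), Zfhx4 10.3-fold (adjusted p = 0.0319), Ebf3 4.32-fold (adjusted p = 0.0392) and Scrt1 2.48-fold higher (adjusted p = 0.00144). Of 39 Hox genes 3 were listed, all lower and all of the HoxA cluster, against 0.251% of all gene tests called lower. Of 33 Polycomb genes 0 were listed, against 1.36% of all gene tests called in either direction.

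**Figure D5:**
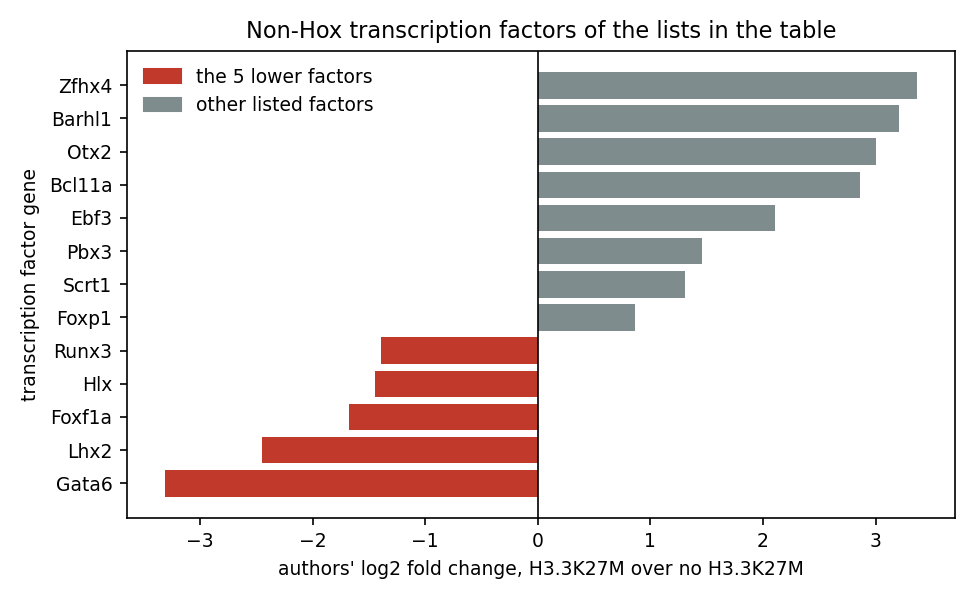
The authors' log2 fold change, H3.3K27M over no H3.3K27M (horizontal axis), of the 13 non-Hox transcription factors from the lists that are in the table; red bars are the 5 lower factors and grey bars the 8 higher ones. The lower factors run from -1.39 for Runx3 to -3.31 for Gata6.

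Listed genes of the Hedgehog and the TGF-beta and BMP pathways, which act upstream of some of the factors in other tissues, were higher in H3.3K27M tumours. So were 81.6% of all listed genes, and 1.36% of all gene tests were called in either direction. Of 17 Hedgehog genes, 3 were higher and 0 lower: the receptor Ptch1, the signal transducer Smo and the coreceptor Cdon. Cdon had 293.1 ± 100.6 normalized counts in H3.3K27M tumours, against 60.8 ± 19.5 in tumours without it (SD, n = 3 each). It was 4.82-fold higher in the authors' deposited table (adjusted p = 0.00257). The Gli factors, through which Hedgehog signals act, were not among the listed genes. Of 33 TGF-beta and BMP genes only the receptor Bmpr2 was listed, 1.97-fold higher in the authors' deposited table with adjusted p = 0.0024.

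Several of the factors are known from mesenchymal, vascular and immune cells. The counts of markers below stand beside 81.6% of all listed genes being higher in H3.3K27M tumours. Of 15 mural and fibroblast markers 3 were listed (Dcn, Lum and Lox), all higher, with sums of 1116 to 1764 normalized counts in H3.3K27M tumours and 279.8 to 556.2 in tumours without it. Of 15 microglia and macrophage markers only Chi3l3 was listed, at 12.4 to 39.5 in H3.3K27M tumours and 0 to 1.95 in tumours without it. Of 12 endothelial, 15 lymphocyte and 10 ependymal and choroid plexus markers, 0 were listed, so these cells have no value here.

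Listed markers of neural cells also differed between the groups, as every listed gene does, and 81.6% of all listed genes were higher. Of 16 neuron markers 5 were listed, all higher, with sums of 1576 to 4319 normalized counts in H3.3K27M tumours and 242.1 to 681.3 in tumours without it. Of 10 astrocyte markers 2 were listed, both higher, with sums of 698.2 to 1130 in the mutant tumours and 260.6 to 415.5 in those without the mutation. Of 10 myelin markers only Ermn was listed, higher at 80.6 to 216.8 in the mutant tumours and 18.5 to 31.2 in those without the mutation. Of 10 markers listed for oligodendrocyte precursors, the lineage that PDGF-driven gliomas resemble, 2 were in the table, Dll3 and Bcas1, both lower. Dll3 had 562.9 ± 97.7 normalized counts in H3.3K27M tumours, against 900.5 ± 111.1 in tumours without it (SD, n = 3 each). Bcas1, which is not confined to precursors, had 9925 ± 1333 in H3.3K27M tumours, against 15092 ± 858.1 in tumours without it. None of these listed neural markers was at 0 in any tumour. The part that any of these cell types has in the lower level of the 5 factors was not tested.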

How the data were processed

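RNA sequencing values of 6 brainstem gliomas were used, from 1 table that lists genes differing between H3.3K27M and other tumours, per its title line. The submitters' processing notes name DESeq, without a version, and the builds mm9 and NCBIM37. The aligner and the read counter were not given in the sources used here. The authors deposited a signal (normalized counts per tumour and their group means), a ratio of group means (fold change), its log2 value, and a p-value with an adjusted p-value. With 16365 tests the Benjamini-Hochberg formula returned all 223 deposited adjusted p-values. All values of a tumour were whole multiples of 1 step within 0.01, taken as 1 read, which gives size factors of 0.917 to 1.06. Low values are too rare in the table to settle this reading, and no count test was run. Columns were matched to tumours by title number, and 0 columns were left over. Tumours were numbered in the order of the samples.

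The 5 factors and the gene lists were chosen with earlier results of these data known. The named genes were the 5 factors, the listed members of the transcription factor lists, the 3 genes nearest to each factor in profile and listed genes among the 5 neighbours on each side; Cdon, Bmpr2 and the marker genes come from the other lists, and the genes ahead of the factors by fold change were named after their values were seen. Means, SDs and distances were computed with Python 3.11.15, pandas 2.3.3 and numpy 2.4.6. Exons, names and neighbours come from GENCODE M21 and promoter windows from RefSeq, both on GRCm38; all 5 factors matched by gene ID. No test was run on the groups, because the genes were chosen by that contrast. The series' design text calls the tumours independent, and each was taken as 1 replicate. Alternatives left out each tumour, used medians, pseudocounts of 0.5, 1 and 5 on the log2 scale, or unscaled reads.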

Additional observations from a re-analysis of the deposited data

How the results depend on the processing

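The direction of all 5 factors held under all 55 alternatives (11 per factor). Since no groups overlapped, leaving out a tumour, medians or pseudocounts could not reverse it, so this adds no support for the direction. Of these 55 values, 53 lay within 1 SD of the replicates of the value reported, with SDs from 0.14 for Hlx to 0.98 for Gata6 (log2). The other 2 were those without H3.3K27M replicate 3, where the log2 ratio of Gata6 was -4.66 against -3.31 and that of Lhx2 -3.08 against -2.45. With 1 tumour left out, the log2 ratio ranged from -4.66 to -2.90 for Gata6, -1.83 to -1.56 for Foxf1a, -1.56 to -1.38 for Hlx, -3.08 to -2.17 for Lhx2 and -1.69 to -1.20 for Runx3. At an adjusted p of 0.01 in place of 0.05, 21 of the 41 lower genes remained, among them 3 of the 5 factors (Gata6, Hlx and Lhx2), since Foxf1a and Runx3 lie above that threshold. With a pseudocount of 5 the same 3 genes were nearest to each factor, but their order changed for Lhx2. Gata6 came first at 0.29 (0.53 with a pseudocount of 1), ahead of 1110050K14Rik at 0.41 (0.43) and Foxf1a at 0.51 (0.52). Lhx2 was then nearer to Gata6 than to Foxf1a. No paired analysis was possible because the labels give no replicate numbers shared between the groups and no test was run. Depth limits Gata6 most, with 35 inferred reads over the 3 H3.3K27M libraries.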
